A study of Mus musculus with 6 samples.

Results

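The CELF proteins (Celf1 to Celf6) and the muscleblind-like proteins (Mbnl1 to Mbnl3) are 2 families of RNA-binding proteins that set alternative splicing, and their transcripts were examined in motor neuron-like cells with and without Quaking. The members were taken by gene symbol from the deposited gene tables, where all 9 of 9 symbols were found among 23038 genes. The cells were NSC-34, a mouse line that is a fusion of neuroblastoma with embryonic spinal cord cells, grown in serum-containing DMEM. In the siNC group, 3 libraries came from cells transfected with control siRNA. In the siQk group, 3 libraries came from cells transfected with siRNA against Qk, the gene of the Quaking proteins. Every group carried the same unmodified line at a single time after transfection, and 3 different siRNAs against Qk were used, without a statement of which library received which. The replicates were independent cultures per the study's methods. Because NSC-34 is a single dividing hybrid line, it models only some features of a spinal motor neuron.

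CELF and MBNL proteins are best known as opposing regulators of the same exons. MBNL proteins bind RNA through zinc fingers at short YGCY motifs, and their sequestration on expanded CUG repeats in the DMPK transcript is the central lesion of myotonic dystrophy. CELF proteins bind GU-rich RNA through RNA recognition motifs, and besides splicing, Celf1 recruits deadenylases to GU-rich transcripts and shortens their life. During heart and muscle development CELF activity declines while MBNL activity grows, and in neurons Celf3, Celf4, Celf5 and Celf6 form a largely brain-restricted subgroup next to the broadly expressed pair Celf1 and Celf2. The comparison asked whether the levels of these splicing regulators move when Quaking, itself a splicing regulator, is depleted. All values are sums over the isoforms of a gene, so exon choice within Celf and Mbnl transcripts is not described.

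Among the members, Celf1 (Entrez 13046), Mbnl2 (Entrez 105559) and Mbnl3 (Entrez 171170) have a single annotated transcription start in RefSeq (GRCm38.p6). Their start regions are shown for that reason. The levels of these 3 genes, described below, were steady and high, intermediate, and next to absent. Each runs from 250 bases before to 50 bases after the start, 5′ to 3′ on the gene's own strand, and capitals mark every CG dinucleotide, which reads the same on both strands. The Celf1 region lies at chr2:90940147-90940446 on the plus strand, the Mbnl2 region at chr14:120275419-120275718 on the plus strand, and the Mbnl3 region at chrX:51205941-51206240 on the minus strand.
Celf1: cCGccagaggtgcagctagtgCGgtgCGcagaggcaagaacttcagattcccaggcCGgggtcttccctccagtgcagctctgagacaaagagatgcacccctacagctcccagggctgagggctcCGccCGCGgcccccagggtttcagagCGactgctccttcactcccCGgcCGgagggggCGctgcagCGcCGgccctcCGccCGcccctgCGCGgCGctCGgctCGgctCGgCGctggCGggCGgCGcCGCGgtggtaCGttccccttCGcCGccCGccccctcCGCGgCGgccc
Mbnl2: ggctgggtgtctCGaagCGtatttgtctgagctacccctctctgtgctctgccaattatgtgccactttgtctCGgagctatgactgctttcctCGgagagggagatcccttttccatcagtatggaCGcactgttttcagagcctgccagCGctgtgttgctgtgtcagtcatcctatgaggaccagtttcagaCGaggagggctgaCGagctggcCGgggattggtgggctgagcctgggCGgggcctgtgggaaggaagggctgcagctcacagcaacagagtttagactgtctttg
Mbnl3: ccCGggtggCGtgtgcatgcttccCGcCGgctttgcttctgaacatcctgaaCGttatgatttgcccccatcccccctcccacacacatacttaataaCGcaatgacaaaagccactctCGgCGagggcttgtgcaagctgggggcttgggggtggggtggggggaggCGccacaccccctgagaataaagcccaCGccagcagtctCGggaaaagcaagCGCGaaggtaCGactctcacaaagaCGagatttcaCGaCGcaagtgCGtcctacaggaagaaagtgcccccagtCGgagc

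The Celf1 region held 34 CG dinucleotides, more than 92.3% of the 32851 start regions of the same length in the table. The Mbnl3 region held 19 and the Mbnl2 region 10, more than 71.9% and 56.5% of all regions. In these 3 regions CG content did not follow level, since the region of Mbnl3, with its single count, held more CG than that of Mbnl2. Start regions of 8 members were matched, with 24 starts in all, and none was matched for Celf4. The other matched members had several starts each, with 4 to 48 CG over 5 starts of Celf2 and 2 to 41 over 2 starts of Mbnl1. Over 7 starts of Celf3 the count was 1 to 12, over 5 starts of Celf5 11 to 23, and over 2 starts of Celf6 4 to 31. Of all start regions, 43.5% held at least 10 CG.

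Library totals ran from 43000503 to 53565950 expected counts, and each library had a count for 16057 to 16516 genes. Qk (Entrez 19317, GRCm38 chromosome 17, 10202601 to 10319854, minus strand) was at 9.67, 8.18 and 14.9 RPKM in siNC replicates 1 to 3 and at 1.39, 1.71 and 1.10 RPKM in siQk, so every library lay on the side of its label. RPKM is the count of a gene scaled by its exon length in kilobases and by the library total. Qk fell by 2.997 on the log2 scale (SE 0.27, edgeR adjusted p = 0.0149). On the first 2 principal components of all genes, siNC replicate 3 and siQk replicate 2 stood apart from the others. Of 12 neuron markers 10 were above 1 RPKM, with summed levels of 431 to 774 RPKM in siNC and 584 to 787 RPKM in siQk, but Stmn2 had at most 3 counts in any library. Of 8 motor neuron markers 3 were above 1 RPKM, with sums of 567 to 957 RPKM in siNC and 433 to 694 RPKM in siQk that were nearly all Prph, a neuronal intermediate filament (mean 698 RPKM in siNC and 561 RPKM in siQk). Of the other genes of that list, Isl1, Chat, Lhx3, Onecut1 and Slc5a7 had a higher mean in siQk, and Slc18a3 and Mnx1 a lower one. Isl1, a motor neuron transcription factor, was at a siNC mean of 4.79 ± 0.0365 and a siQk mean of 8.59 ± 0.937 RPKM (SD, n = 3) with no overlap of the groups, as seen for 8.83% of all genes tested. The groups of Chat, the acetylcholine-synthesising enzyme, did not overlap either, at means of 0.0509 and 0.126 RPKM that rest on 7 to 35 counts per library. Slc18a3, the vesicular acetylcholine transporter, was at means of 2.02 and 1.93 RPKM. Markers of glia (1 of 9 above 1 RPKM) summed to 1.88 to 3.77 RPKM and those of blood and microglia (0 of 7) to 0.383 to 1.04 RPKM over the 6 libraries, and Aqp4, Slc1a3, Olig2, Cx3cr1, Hba-a1 and Hbb-bs had at most 3 counts in each library. Markers of muscle, the tissue in which both families are best studied, were above 1 RPKM for 2 of 13 genes, with sums of 32.9 to 51.5 RPKM that were nearly all Myh3, an embryonic myosin (33.3 RPKM in siNC, above Celf1 and Mbnl1), and Tnnt2, a cardiac troponin (9.77 RPKM), while Myod1, Myog, Myf5, Actc1 and Myh8 had at most 3 counts in each library. Fibroblast markers (2 of 7 above 1 RPKM) summed to 6.77 to 17.2 RPKM, nearly all from Thy1 and Pdgfra. Thy1 was at means of 8.51 RPKM in siNC and 5.72 RPKM in siQk, and Pdgfra at 4.59 and 4.98 RPKM. Col3a1 and Lum had no more than 3 counts in each library.

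Transcripts of 7 of the 9 genes were measured well above the counting limit in NSC-34 cells, while Celf2 was listed at 0 and Mbnl3 had a single count. Celf3 had the highest siNC mean per exon length, but not in each library, since in siNC replicate 3 Celf1 (25.8 RPKM) lay above it (24.5 RPKM). Without division by length the siNC share of Celf3 in the summed counts of both families was 18.3%, behind Celf1 (23.8%) and Mbnl1 (22.1%). By mean level per exon length in siNC, the order was Celf3 (37.7 RPKM), Celf4 (25.4), Celf1 (24.1), Mbnl1 (21.3), Celf6 (12.1), Mbnl2 (10.8), Celf5 (1.59), Mbnl3 (0.000753) and Celf2 (0). Several neighbours in this order did not differ beyond their spread. Celf4 exceeded Celf1 in 1 of 3 siNC libraries and in 0 of 3 siQk libraries, with a mean difference of 1.38 ± 8.61 RPKM in siNC (SD, n = 3), and Celf6 exceeded Mbnl2 by 1.32 ± 4.70 RPKM, in 2 of 3 siNC and 3 of 3 siQk libraries. Celf3 exceeded Celf4 in 6 of 6 libraries, though by 12.2 ± 17.7 RPKM in siNC, a difference smaller than its spread. The steps from Mbnl1 to Celf6 and from Mbnl2 to Celf5 held in 6 of 6 libraries and exceeded their spread. Celf1 lay above Mbnl1 in 3 of 3 siNC libraries by 2.76 ± 0.887 RPKM and in 2 of 3 siQk libraries. Celf3 had a higher level than 86.8% of the 17309 genes with any siNC count, Celf1 than 79.7% and Celf5 than 36.0%.

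**Figure D1:**
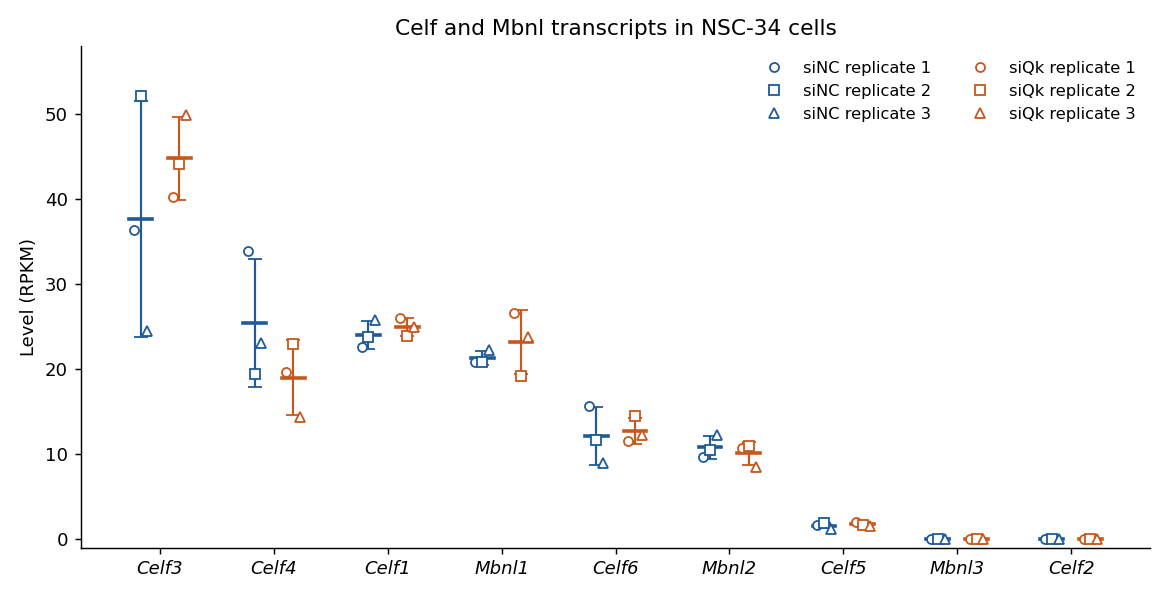
Level in RPKM (vertical axis) of the 9 Celf and Mbnl genes (horizontal axis, ordered by siNC mean). Open symbols are the 3 siNC and 3 siQk libraries, wide bars the group means and whiskers the SD. Celf3 in siNC spans 24.5 to 52.1 RPKM, whereas Celf1 stays between 22.6 and 26.0 RPKM in all 6 libraries, and Celf2 and Mbnl3 lie at the bottom of the axis.

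Celf1 and Celf2 are close paralogs of broad expression, and only Celf1 had counts. Celf1 (GRCm38 chromosome 2, 90940382 to 91019497, plus strand, protein-coding) was at 22.6, 23.8 and 25.8 RPKM in siNC replicates 1 to 3 and at 26.0, 23.8 and 25.0 RPKM in siQk replicates 1 to 3. The groups overlapped, and the highest siNC library was 1.14 times the lowest. Celf2 (Entrez 14007, at 6539694 to 7509563 on the minus strand of chromosome 2), a regulator of splicing in brain and T cells, had 0 counts in each of the 6 libraries. Whether the line lacks the transcript or the authors' gene model or counting lost it cannot be told apart from these tables, so the 0 is not read as absence of expression. As counting error alone, a 0 allows up to 3 counts per library, or 0.0107 RPKM in the shallowest library. Of all genes, 5050 (21.9%) had no count in any library, and among genes with at least 6000 bases of exon, as Celf2 has, 171 of 2600 (6.58%) did. Of the 30 other splicing regulators set beside the members below, 2 (6.67%) had no count in any library. In the list of short-lived transcripts and general decay machinery, 0 of 35 genes found lacked a count in all 6 libraries.

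The neuronal Celf genes differed in level and in evenness between cultures of the same group. Celf3 and Celf4 were abundant but uneven, Celf6 was lower and less uneven, and Celf5 was low. Celf3 (Entrez 78784, GRCm38 chromosome 3, 94478295 to 94492198, plus strand), a member found mainly in brain, was at 36.4, 52.1 and 24.5 RPKM in siNC replicates 1 to 3. In siQk replicates 1 to 3 it was at 40.2, 44.2 and 49.9 RPKM. The siQk values lay inside the siNC range, and siNC replicate 3 was the lowest library. That library also had the lowest summed neuron markers, 431 RPKM against 700 and 774 RPKM in siNC replicates 1 and 2, a sum in which Tubb3, a neuronal tubulin, weighed most (142 RPKM against 346 and 318 RPKM). The markers did not move as a block. Nefl, Nefm, Syt1, Gap43 and Elavl3 were also lowest of siNC there, while Elavl4 and Ncam1 were highest. In siQk replicate 2 the sum was the lowest of siQk (584 RPKM, Tubb3 186 RPKM), yet Nefl, Nefm, Snap25 and Elavl3 were the highest of siQk, and Celf3 was not the lowest there. In such bulk libraries fewer cells of a type and less RNA per cell cannot be told apart. The part of these markers in the Celf3 level was not tested. Celf6 (Entrez 76183, GRCm38 chromosome 9, 59577917 to 59607292, plus strand), another brain-enriched member, was at 15.7, 11.7 and 8.98 RPKM in siNC. In siQk it was at 11.6, 14.5 and 12.2 RPKM, all inside the siNC range. Celf5 (Entrez 319586, GRCm38 chromosome 10, 81459227 to 81482709, minus strand) was low in every library, at 1.62, 1.89 and 1.25 RPKM in siNC and 2.03, 1.69 and 1.55 RPKM in siQk, and its highest library was a siQk library. Its values rest on 340 to 584 counts per library.

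Celf4 (Entrez 108013, GRCm38 chromosome 18, 25477632 to 25754157, minus strand), a neuronal member known to restrain excitability in mouse brain, varied most on the log2 scale between replicates of a group. It was at 33.9, 19.4 and 23.0 RPKM in siNC replicates 1 to 3 and at 19.7, 23.0 and 14.3 RPKM in siQk replicates 1 to 3. The groups overlapped, siNC replicate 1 being highest and siQk replicate 3 lowest. siNC replicate 1 also had the highest level of Prph, 949 RPKM against 586 and 559 RPKM in siNC replicates 2 and 3. Mnx1 was highest of siNC there too, but on at most 7 counts in any library. Isl1 was nearly level, at 4.83, 4.75 and 4.80 RPKM, and Slc18a3 was lowest there, at 1.66, 2.25 and 2.15 RPKM. Chat, Lhx3, Onecut1 and Slc5a7 were not highest of siNC in that library. The part of these markers in the Celf4 level was not tested.

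Of the Mbnl genes, Mbnl1 and Mbnl2 were expressed and Mbnl3 was not detectable beyond a single count. Mbnl1 (Entrez 56758, GRCm38 chromosome 3, 60472830 to 60629750, plus strand), the main muscleblind protein of muscle, was at 20.8, 20.8 and 22.3 RPKM in siNC replicates 1 to 3. In siQk it was at 26.6, 19.1 and 23.8 RPKM, so that siQk replicate 1 was the highest and siQk replicate 2 the lowest of the 6. The siQk values therefore enclosed the siNC values. Mbnl2 (GRCm38 chromosome 14, 120275669 to 120431697, plus strand), the main muscleblind protein of brain, was at 9.63, 10.5 and 12.3 RPKM in siNC and at 10.8, 11.0 and 8.52 RPKM in siQk. Mbnl1 exceeded Mbnl2 in every library, by ratios of 2.16, 1.98 and 1.81 in siNC and 2.48, 1.75 and 2.79 in siQk. Mbnl3 (GRCm38 chromosome X, 51117269 to 51206532, minus strand), which is known from embryonic tissue and dividing muscle precursors, had 1 count in siNC replicate 1 and 0 counts in the other 5 libraries. For a count of 0, the limit of 3 counts corresponds to 0.00802 RPKM in the shallowest library. Mbnl2 was about 1138-fold or more above the per-library limit in the 5 libraries with 0 counts of Mbnl3.

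Summed per library, Celf transcripts came to 110, 109 and 83.6 RPKM in siNC replicates 1 to 3 and to 99.5, 107 and 103 RPKM in siQk replicates 1 to 3. Mbnl transcripts came to 30.4, 31.4 and 34.6 RPKM in siNC and to 37.4, 30.1 and 32.3 RPKM in siQk. The Celf share of the summed level of both families was 75.6% ± 4.21 in siNC and 75.6% ± 2.73 in siQk (SD, n = 3). The 2 shares thus differed by less than the spread between libraries, and the lowest Celf share, 70.7%, was that of siNC replicate 3. Within this sum, Celf3 held 27.9% ± 8.40 in siNC and 32.8% ± 3.80 in siQk. Celf4 held 19.1% ± 5.13 in siNC and 13.9% ± 3.12 in siQk, Celf1 held 18.3% ± 3.12 and 18.3% ± 0.827, and Mbnl1 held 16.2% ± 2.33 and 16.996% ± 2.81. Each of these pairs differed by no more than the larger of its SDs except that of Celf4, whose difference was slightly above it. The ratio of Celf3 to Celf4 ran from 1.06 to 2.68 in siNC and from 1.92 to 3.49 in siQk.

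**Figure D2:**
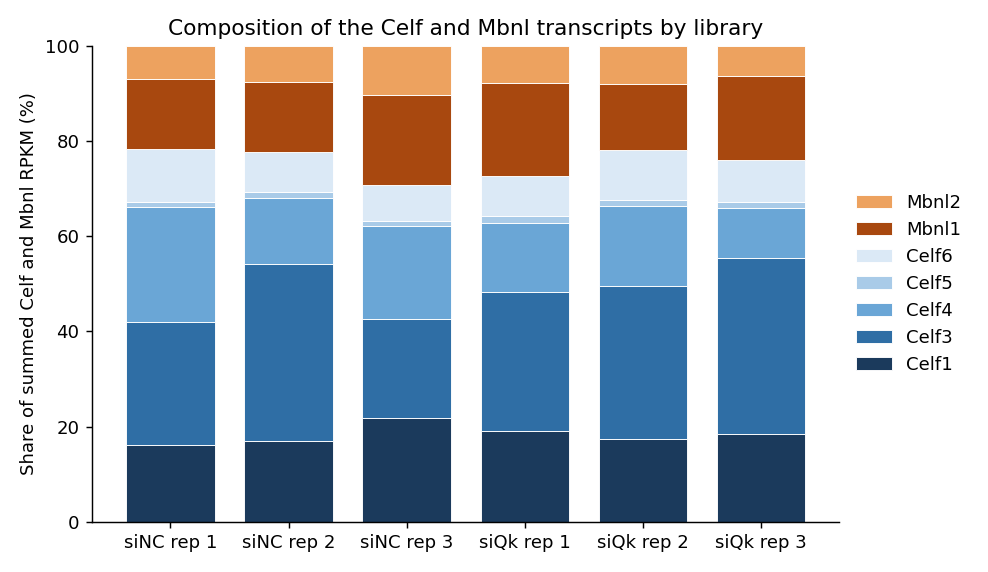
Share of each gene in the summed Celf and Mbnl level of a library (percent of RPKM, vertical axis), with 1 bar for each of the 3 siNC and 3 siQk libraries; Celf genes are blue and Mbnl genes orange. Celf genes hold between 70.7% and 78.4% of the sum, and the Celf3 part is narrowest in siNC replicate 3.

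No Celf or Mbnl gene was called changed between siQk and siNC. Calling needed a p under 0.01 together with an adjusted p under 0.1 (edgeR quasi-likelihood, Benjamini-Hochberg). By this rule 0 of the 7 members tested were called, against 0.00790% of the 12666 genes tested, a share that comes from Qk alone. The edgeR exact test and DESeq2 also called 0 of the 7 members, beside 5 and 19 of all genes tested. At an unadjusted p under 0.05 there were 0 of 7 members, beside 2.89% of all genes tested. The groups did not overlap in RPKM for 0 of 7 members, beside 8.83% of all genes tested. Celf2 and Mbnl3 did not pass the filter on low counts and have no test. The median log2 fold change of the 7 members was 0.05 and that of all genes tested 0.00, with 5 members above 0 and 2 below. The median absolute log2 fold change was 0.12 for the members and 0.15 for all genes tested.

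The smallest p among the members belonged to Celf4. Its log2 fold change of siQk over siNC was -0.45 (SE 0.24, edgeR adjusted p = 0.9996), with a 95% interval from limma-trend of -0.98 to 0.11 on the log2 scale. The siQk mean was 74.7% of the siNC mean, and the two-sided exact permutation p on RPKM was 0.4, where 3 against 3 libraries cannot give less than 0.1. Without siNC replicate 1, the highest library, the log2 fold change was -0.20, and without siQk replicate 3, the lowest, it was -0.29, so that either library moved the value by more than 1.5 times. Without siNC replicate 2 it was -0.63 and without siQk replicate 2 it was -0.61, both at an unadjusted p under 0.05 and neither called.

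For Celf3 the log2 fold change was 0.23 (SE 0.24, interval -0.25 to 0.82), and it ranged from 0.02 without siNC replicate 3 to 0.51 without siNC replicate 2. For Celf1 the log2 fold change was 0.03 (SE 0.14, interval -0.29 to 0.35). The sign turned for Celf1 when siNC replicate 1, siNC replicate 2 or siQk replicate 1 was left out (-0.02 to -0.01), for Mbnl1 without siQk replicate 1, for Mbnl2 and Celf5 without siNC replicate 3, and for Celf6 without siNC replicate 3 (-0.11) or siQk replicate 2 (-0.05). For Mbnl1 the value was 0.10 (SE 0.17, interval -0.29 to 0.46) and for Mbnl2 -0.13 (SE 0.18, interval -0.53 to 0.27). The interval of the well-measured pair Celf1 and Mbnl1 thus left room for changes of up to 0.35 and 0.46 upward and 0.29 downward on the log2 scale, and the widest intervals were those of Celf3 and Celf4. Celf5 (0.12, SE 0.23, interval -0.38 to 0.64) and Celf6 (0.05, SE 0.22, interval -0.41 to 0.57) also included 0. Each of the 7 members had an edgeR adjusted p of 0.9996.

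**Figure D3:**
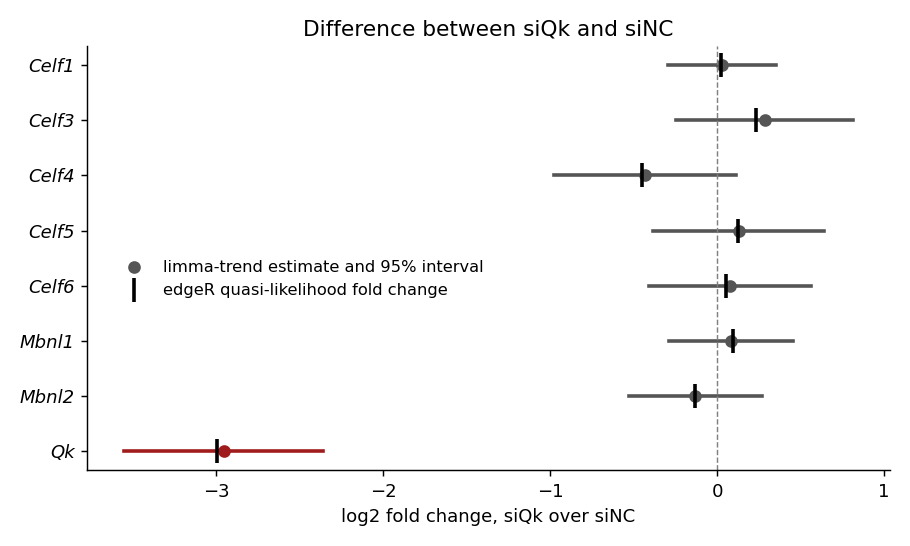
log2 fold change of siQk over siNC (horizontal axis) for the 7 Celf and Mbnl genes tested and for Qk (vertical axis). Dots and lines are limma-trend estimates with 95% intervals and black ticks the edgeR values. The 7 member intervals include 0, and the Qk interval runs from -3.56 to -2.36.

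The members differed in how steady they were within a group. As the siRNA of each siQk library is not stated, spread between siRNAs and between cultures cannot be told apart there. The pooled within-group SD of log2 CPM was 0.11 for Celf1, smaller than that of 93.5% of the genes tested, and than that of 88.8% of the 1258 genes of like level, within 0.5 log2 units. Mbnl1 (SD 0.19), Mbnl2 (0.21) and Celf5 (0.23) lay below the median of 0.26 over all genes tested. Celf4 (0.38), Celf3 (0.37) and Celf6 (0.29) lay above it, and only 11.4% and 11.8% of the genes at like level had a larger SD than Celf4 and Celf3. The spread thus followed no single library. Celf3, Celf5 and Celf6 were lowest in siNC replicate 3, at -0.64, -0.34 and -0.38 log2 units from their own means, while Celf1 and Mbnl2 were highest there, at 0.14 and 0.31. Celf4 was highest in siNC replicate 1 (0.66) and lowest in siQk replicate 3 (-0.59), and Mbnl2 was also lowest in siQk replicate 3 (-0.29).

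**Figure D4:**
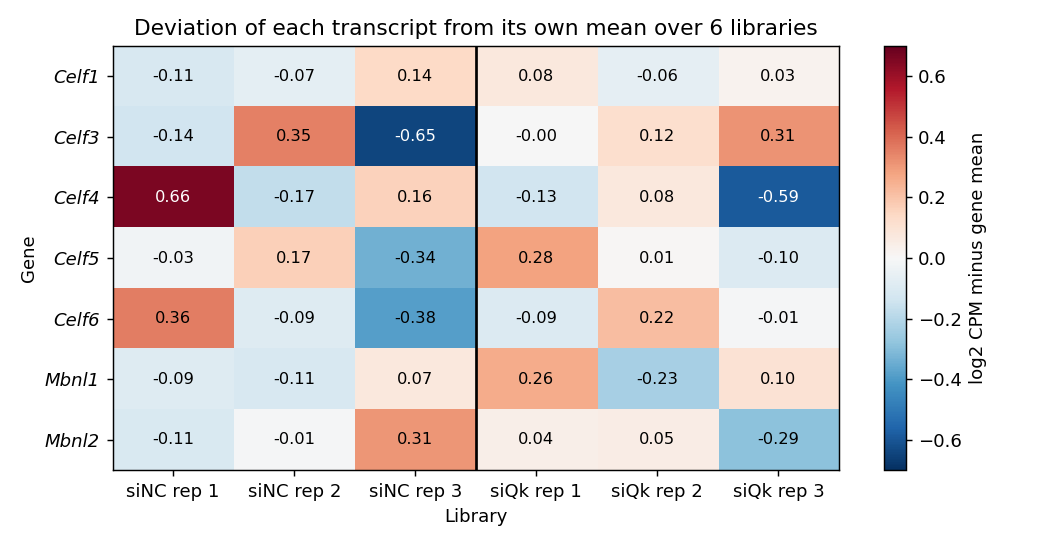
Deviation of log2 CPM from each gene's own mean over the 6 libraries (colour and printed value, log2 units), with the 7 Celf and Mbnl genes tested as rows and the libraries as columns, siNC left and siQk right of the line. The Celf1 row stays between -0.11 and 0.14, whereas the Celf4 row runs from -0.59 to 0.66.

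By Pearson correlation of log2 CPM over the 6 libraries, the gene with the pattern most like that of Celf1 was Xrn1 (r = 0.995), the main cytoplasmic 5′ to 3′ exonuclease. For Celf3 it was Myb (r = 0.995), a transcription factor of proliferating cells, and for Celf4 it was Vamp1 (r = 0.986), a synaptic vesicle protein. The corresponding genes were Slc47a1 for Celf5 (r = 0.986), Trp53i13 for Celf6 (r = 0.995), Sh3rf1 for Mbnl1 (r = 0.994) and 2210012G02Rik for Mbnl2 (r = 0.993). These are descriptions over 6 points chosen from 12666 genes, and the points share library depth and scaling. Between 24 genes for Celf4 and 209 genes for Celf6 reached an r of at least 0.9. No pair of members was among the closest, the highest r between members being 0.75, for Celf1 and Mbnl1.

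Transcripts known to carry CELF- or MBNL-regulated exons showed no called change in total level, which does not describe the exons themselves. Of 50 such genes 44 were tested, 0 were called, and 13 were above and 31 below 0. Of all genes tested, 6439 were above and 6227 below 0. The median log2 fold change of the list was -0.07 beside 0.00 for all genes tested. It ranged from -0.145 to -0.0403 as single libraries were left out. The groups did not overlap for 3 of 44 genes (6.82%, beside 8.83% of all genes tested). At an unadjusted p under 0.05 there was 1 of 44, beside 2.89% of all genes tested. That gene was Mapt, which encodes the microtubule protein tau and has an MBNL-sensitive exon. It was at 21.4, 25.7 and 17.7 RPKM in siNC and 14.9, 17.6 and 14.2 RPKM in siQk, so the groups were separated by a narrow margin. Its log2 value of siQk over siNC was -0.49 ± 0.17 (SE), not called at an edgeR adjusted p of 0.9996.

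Among 35 short-lived GU- or AU-rich transcripts and factors of deadenylation and decapping, 34 were tested and 0 were called, with 19 above and 15 below 0. Their median log2 fold change was 0.03, and it ranged from -0.01 to 0.06 as single libraries were left out, so its sign was not stable. In 0 of the 34 genes did the groups not overlap. At an unadjusted p under 0.05 there was 1 of 34, beside 2.89% of all genes tested, and it was Myc, at 99.7, 79.2 and 101 RPKM in siNC and 79.8, 60.4 and 70.4 RPKM in siQk. The groups overlapped narrowly (log2 fold change -0.44, SE 0.18, edgeR adjusted p = 0.9996). The third list, of 24 genes found, holds genes that carry disease repeats, kinases that modify Celf1 and proteins that bind CUG repeats. Of these, 24 were tested, 0 were called, 10 were above and 14 below 0, and the median was -0.02, ranging from -0.09 to -0.01 as single libraries were left out. Jph3, a junctional membrane protein whose human gene carries a repeat in a Huntington-like disease, was at 30.3, 22.0 and 24.9 RPKM in siNC and 20.3, 12.99 and 21.1 RPKM in siQk. Its groups did not overlap (log2 fold change -0.53, SE 0.22, edgeR adjusted p = 0.9996), as for 3 of the 24 genes (12.5%, beside 8.83% of all genes tested). Dmpk, whose repeat sequesters MBNL proteins in people, was low, at 3.37 RPKM in siNC and 2.81 RPKM in siQk.

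Set beside 30 other regulators of tissue-specific splicing, the members were spread from the upper part of the range to its end. Among the highest levels in siNC were those of Ptbp1 (233 ± 12.8 RPKM, SD, n = 3), a repressor of neuronal exons, and Tial1 (49.8 ± 2.67 RPKM). Celf3 ranked 7, Celf4 9, Celf1 11, Mbnl1 14, Celf6 17, Mbnl2 18, Celf5 29, Mbnl3 36 and Celf2 39 of 39 in the joint order by level per length. Of these other regulators, 25 were tested and 0 were called, with 19 above and 6 below 0, and 0 had an unadjusted p under 0.05. Of all genes tested, 6439 were above and 6227 below 0. The list's median log2 fold change was 0.11, beside 0.00 for all genes tested. It ranged from 0.0395 to 0.14 as single libraries were left out. The groups did not overlap for 3 of the 25 genes (12%, beside 8.83% of all genes tested).

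Reads of genes on opposite strands cannot be told apart with the kit used, and exons of 4 members overlap exons of a gene on the other strand in the GENCODE annotation. The overlap was 543 bases for Celf5 with Gm16105 (8.14% of the annotated exon bases of Celf5), 1961 bases for Celf2 with Gm26565, 86 bases for Mbnl2 with Gm26679 and 74 bases for Celf3 with Riiad1. Of these partners Riiad1 is in the files, with 182 to 527 counts per library. No stretch of 75 bases in annotated transcripts of Celf1, Celf4, Celf6, Mbnl1 or Mbnl3 occurred in a transcript of another gene, so reads of these paralogs could be told apart at that length.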

How the data were processed

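Poly-A RNA was made into TruSeq version 2 libraries and sequenced as 75-base pairs; the authors aligned reads to mm10 (per the labels; the methods name the mouse build in 2 conflicting ways) by the OLego aligner and used Quantas for gene counts, versions not given in the sources used here. The deposited files hold an expected count per gene (21.9% to 22.9% not whole), the exon length in bases, listed as another quantity, and an RPKM value that the authors scaled by exon length and column total. The kit keeps no strand. Depth was 43000503 to 53565950 counts per library, so at these levels precision is set by 3 libraries per group.

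Here, expected counts were rounded, scaled by TMM and kept at an average log2 CPM above 0 (12666 genes). edgeR 4.0.16 (R 4.3.3) gave the main test, its quasi-likelihood fit, for siQk against siNC, all 6 libraries, no covariate, called at p under 0.01 and Benjamini-Hochberg adjusted p under 0.1. SE and 95% intervals came from limma-trend (limma 3.58.1, log2 CPM, prior count 2). RPKM were compared by a two-sided exact permutation test over 20 arrangements. Scripts were checked on data drawn with known changes. Same-numbered libraries deviated from their group means with correlations of 0.213, 0.0182 and -0.169, so numbers were not taken as pairs. Alternatives were other scalings, filters and tests (DESeq2 1.42.0), the replicate block and left-out libraries, plus a joint removal of siNC replicate 3 and siQk replicate 2 added after the data were seen.

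Positions are from GENCODE release M21 (GRCm38), sequences from RefSeq (GRCm38.p6). Members, gene lists and tests were chosen with earlier results of these data known. The named genes are all members, Qk, the most alike gene per tested member, up to 4 genes per related list at an unadjusted p under 0.05, and the 3 most abundant other splicing regulators, of which 1 is not reported here. Single marker genes and Dmpk were named after their values were seen. Protein sequences, which the rule also foresaw, were not used here. 5 list genes carry older symbols in the files and were matched through Entrez identifiers.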

Additional observations from a re-analysis of the deposited data

How the results depend on the processing

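Under all 17 alternatives 0 Celf or Mbnl members were called, and 0 genes of the 4 related lists. Of 112 refits of the 7 members tested (the stricter threshold alone is no refit), 103 kept the direction and 9 turned it, none of them called. Over the fits that each left out a library, Celf1 ranged from -0.0238 to 0.11, Celf5 from -0.00073 to 0.24, Celf6 from -0.11 to 0.28, Mbnl1 from -0.0153 to 0.22 and Mbnl2 from -0.22 to 0.00025. Without siNC replicate 3 and siQk replicate 2 together, Celf6 was at -0.20. Without siNC replicate 2, 2 members (Celf3 and Celf4) had an unadjusted p under 0.05, and without siQk replicate 2, 1 did. Adjusted p of the members ran from 0.793 to 1 over the alternatives.

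The number of genes called in the whole table was 5 by edgeR's exact test, 19 by DESeq2, and ranged from 0 to 1 over the left-out libraries, being 0 without siNC replicate 1, where Qk was at -3.09. The replicate block left it at 1 and moved no member across the threshold. The median of the alternative exon targets ranged from -0.145 to -0.0403, that of the decay targets and deadenylases from -0.01 to 0.06, that of the repeat and signalling partners from -0.09 to -0.01 and that of the other splicing regulators from 0.0395 to 0.14 over the left-out libraries. With counts not divided by exon length, siNC shares moved to 23.8% for Celf1, 18.3% for Celf3, 4.61% for Celf6, 22.1% for Mbnl1 and 11.6% for Mbnl2, as the lengths differ, and Celf1 then led. Scaling by total counts gave an all-gene median of 0.03 in place of 0.00. Why single libraries moved a value was not tested.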
